A study of Mus musculus with 8 samples.

Results

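Effector CD8 T cells were taken from the livers of mice with hepatocellular carcinoma, in a droplet single-cell RNA-seq series of 6 mRNA libraries. A cell barcode was a member when it held at least 500 unique molecular identifiers (UMIs, each a counted RNA molecule), at least 300 genes and at most 20% mitochondrial UMIs. It also had to hold a UMI of Cd3d, Cd3e or Cd3g (chains of the T cell receptor complex), a UMI of Cd8a or Cd8b1 (the CD8 coreceptor) and a UMI of Gzmk or Gzmb (granzymes, proteases of cytotoxic granules). A member held none of Cd4, Foxp3, Cd79a, Lyz2 or C1qa, which mark helper and regulatory T cells, B cells, myeloid cells and macrophages. These criteria gave 1503 effector CD8 T cells of 21482 kept cells, 7.0% of them. Since the cells were chosen by measured UMIs of these 12 genes, the levels of those genes are given as a description only.

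CD8 T cells recognise peptides on class I major histocompatibility molecules through the T cell receptor, and after activation they become effector cells that kill targets with perforin and granzymes and secrete interferon gamma and chemokines. In a tumour-bearing liver such cells can carry programs of recirculation (Klrg1, Cx3cr1), of liver residency (Cxcr6, Itga1) or of chronic stimulation (Pdcd1, Havcr2, Entpd1). Nr4a1 encodes Nur77, a nuclear receptor that T cell receptor signalling induces within CD8 T cells.

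Tumours were induced in male C57BL/6 mice of 8 to 10 weeks by hydrodynamic tail-vein injection, which drives plasmids into hepatocytes. The injected 30 µg of plasmid carried a guide RNA against the tumour suppressor Trp53, a c-Myc transposon and the Sleeping Beauty transposase CMV-SB13, and livers were taken 4 to 5 weeks later. Mice of both groups were Nr4a1 fl/fl. Controls were Ncr1 WT and carried no Cre, and the mice labelled knockout carried Ncr1 iCre, which is expressed from the gene of the NK receptor NKp46. Cre therefore acts chiefly in NK cells and group 1 innate lymphoid cells, and CD8 T cells are mostly not its target. Each group had 3 mRNA libraries. Control 3 pooled 3 mice and knockout 3 pooled 2 mice, which hashtag antibodies separate and which are called mouse A, B and C below. The labels call the libraries numbered 1 and 2 biological replicates without saying which animals they hold, so p-values measure the spread between libraries, which may in part be technical.

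The effector cells were spread unevenly over the libraries. Control 1 held 54, control 2 held 4 and control 3 held 1183, while knockout 1 held 125, knockout 2 held 0 and knockout 3 held 137. Control 3 thus gave 78.7% of all members. The libraries numbered 2 were small (549 and 134 kept cells) with a median mitochondrial share of 27.9% and 75.1% among barcodes of at least 500 UMIs, and no fit below uses them because they hold fewer than 10 effector cells. Summed over effector cells, the other libraries held 296700 (control 1), 8356995 (control 3), 1207753 (knockout 1) and 888023 UMIs (knockout 3), so that a count of 0 allows up to 10.1, 0.359, 2.48 and 3.38 UMIs per 1000000 (CPM) respectively, for counting error only. Median UMIs per effector cell were 4063, 4535, 7053 and 4199 in the same order. No effector barcode was shared between libraries.

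The effector label was checked against genes outside the gate. A UMI of Trac, Trbc1 or Trbc2, the constant chains of the conventional alpha beta T cell receptor, was present in 1471 members (97.9%). A UMI of Ncr1, Klrb1c, Trdc or Zbtb16, which mark NK cells, gamma delta T cells or NKT cells, was present in 161 members (10.7%), and in 9.26% of members in control 1, 9.21% in control 3, 17.6% in knockout 1 and 17.5% in knockout 3. Gzma, another granzyme, had a UMI in 50% of effector cells of control 1, 50% in control 3, 40.8% in knockout 1 and 38.0% in knockout 3. In B cells, which should lack it, the share was 2.15%, 6.27%, 0.386% and 1.44%, at median depths of 2019, 3052.5, 3254 and 2397 UMIs.

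The gate has sharp edges. Exactly 1 granzyme UMI placed 237 members (15.8%) inside it, and 1266 held at least 2. Gzmb was present in 1401 members and Gzmk in 823. Members with exactly 1 granzyme UMI lay between cells with none and cells with at least 2 for Nkg7, a cytotoxic granule protein, with mean levels over the 4 larger libraries of 1140, 586 and 1850 CPM respectively. Il7r, the interleukin-7 receptor of naive and memory cells, ran the other way, with 113, 270 and 39.1 CPM. Another 436 cells met every positive criterion and were left out for a UMI of an excluded gene, most often Lyz2 (223 cells) or Cd79a (176 cells). In B cells a granzyme UMI was found in 0% of cells of control 1, 4.90% of control 3, 1.16% of knockout 1 and 0.523% of knockout 3, a background level of UMIs in cells that should lack granzymes.

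The first comparison asked whether effector cells took another share of CD8 T cells in the libraries labelled knockout. Effector cells were 46.2% of the 117 CD8 T cells in control 1, 50% of 8 in control 2 and 73.7% of 1605 in control 3. In the libraries labelled knockout they were 42.2% of 296 CD8 T cells in knockout 1 and 37.1% of 369 in knockout 3, and knockout 2 held no CD8 T cell. All 3 controls lay above both other libraries, but control 1 and knockout 1 were close. The means were 56.6% ± 14.9 (SD, n = 3) and 39.7% ± 3.61 (SD, n = 2), a difference of -16.9 percentage points that did not pass an exact two-sided permutation test (p = 0.2, smallest possible 0.1). Without control 3 the difference was -8.395 points.

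Hashtags showed that control 3 itself was not uniform. Cells without a single hashtag call were given to no mouse. The mice thus do not add up to the 1605 CD8 T cells of control 3 or the 369 of knockout 3. Nor do they add up to the 1183 and 137 members of these libraries. Mice A and B of control 3 had effector shares of 79.3% (409 of 516 CD8 T cells) and 76.1% (556 of 731), and mouse C had 47.1% (40 of 85). Mice A and B of knockout 3 had 41.8% (51 of 122) and 38.6% (49 of 127). Mouse C thus lay nearer to control 1 and to the mice labelled knockout than to its own pool mates. Effector cells of mouse C were deeper, with a median of 10742.5 UMIs against 4490 and 4232 in mice A and B of control 3. With mice as units, each library without hashtags also counted as a unit. The difference was then -18.8 points (exact two-sided permutation test, p = 0.125, n = 5 and 3). These units were mice A, B and C with controls 1 and 2, against mice A and B with knockout 1, so n does not count mice alone. When each cell was thinned to 1000 UMIs the shares fell to 34.4%, 25.0% and 58.9% in the controls and 27.7% and 30.9% in knockouts 1 and 3, a difference of -10.1 points (p = 0.7, exact permutation), and the groups then overlapped.

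**Figure D1:**
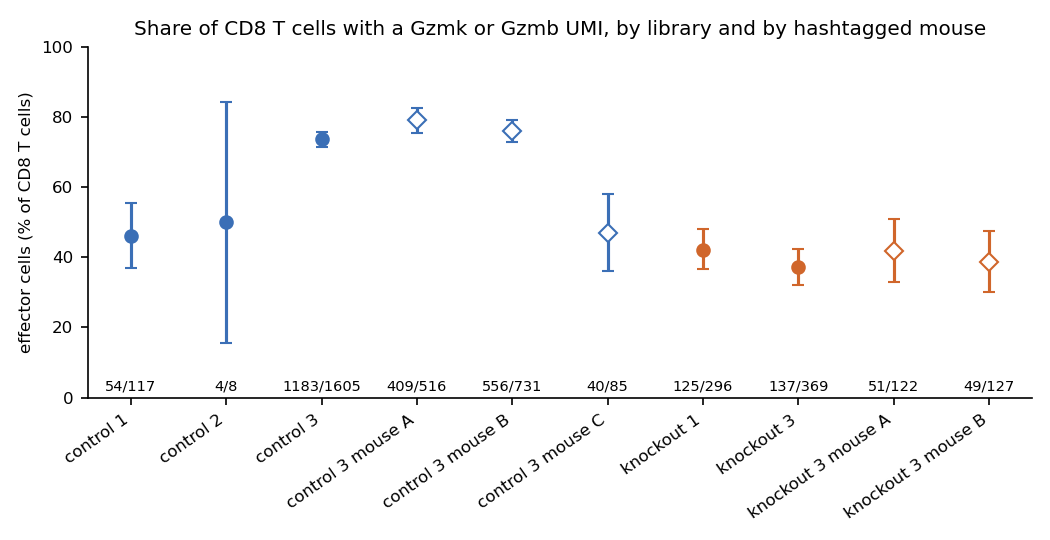
Effector cells as a percentage of CD8 T cells (y axis) for each library and for each hashtagged mouse of the libraries numbered 3 (x axis). Control 3 and its mice A and B lie between 73.7% and 79.3%, and every other library or mouse lies between 37.1% and 50%.

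Measured against all T cells, effector cells were 16.0% (control 1), 11.1% (control 2), 40.1% (control 3), 18.3% (knockout 1), 0% (knockout 2) and 14.1% (knockout 3), so that the groups overlapped (22.4% ± 15.5 and 10.8% ± 9.56, SD, n = 3 each, exact permutation p = 0.5). Knockout 2 held 8 T cells, and a count of 0 among them sets no useful limit. Against all kept cells they were 2.00%, 0.729%, 11.7%, 4.50%, 0% and 2.64% in that order of libraries (4.80% ± 5.99 and 2.38% ± 2.26, SD, n = 3 each, exact permutation p = 0.7). This last difference of -2.43 points turned to 1.01 points without control 3.

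Gzmb and Gzmk divided the members further. Cells with Gzmk and no Gzmb were 5.56% of members in control 1, 6.09% in control 3, 9.60% in knockout 1 and 9.49% in knockout 3. These libraries did not overlap and differed by 3.72 points, but thinned to 1000 UMIs per cell the shares were 0%, 10.6%, 9.76% and 10.2% in the same order, and the groups overlapped. The mice overlapped too, with 4.16%, 6.48% and 10.0% in control 3 and 7.84% and 10.2% in knockout 3. Granzyme UMIs chose the members, and with 2 libraries each an exact permutation test cannot go below p = 0.333, so the shares of granzyme classes are given as values only. Cells with both granzymes were 31.5% in control 1, 53.7% in control 3, 28.8% in knockout 1 and 23.4% in knockout 3, a difference of -16.5 points that shrank to -1.54 points when cells were thinned to 1000 UMIs. Cells with Gzmb alone made up the rest, 63.0% in control 1, 40.2% in control 3, 61.6% in knockout 1 and 67.2% in knockout 3, and that difference of 12.8 points turned to -3.12 when thinned.

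Members with Gzmk and members with Gzmb alone differed in other genes in the same direction in each of the 4 larger libraries. These are descriptions, since granzyme UMIs split the cells. Of all 8652 genes tested below, 8.09% were higher with Gzmk in all 4 libraries and 12.6% were lower. Of the 323 listed genes among them, 39 were higher and 55 lower. Eomes, a T-box factor of cytotoxic and memory lymphocytes, was at 47.6 against 31.3 CPM in control 1 and 72.4 against 47.1 in control 3. In knockout 1 Eomes was at 146 against 69.5 CPM and in knockout 3 at 78.9 against 20.7. The integrin chains Itgb1 and Itga4, the circulating effector genes Klrg1 and Cx3cr1, and the stem-like marker Slamf6 were likewise higher with Gzmk in all 4 libraries. Control 1 had only 20 cells with Gzmk (105077 UMIs) and 34 with Gzmb alone (191623 UMIs). Low levels there, such as Klrg1 at 19.0 against 10.4 CPM, rest on very few UMIs. In control 3 Slamf6 was nearly equal, at 18.2 against 17.1 CPM.

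Several genes shared with innate lymphocytes went the other way, though not all of them. Fcer1g, a signalling adaptor of NK and myeloid receptors, was at 0, 34.6, 27.8 and 69.0 CPM in Gzmk cells of control 1, control 3, knockout 1 and knockout 3, and at 230, 136, 389 and 462 CPM in cells with Gzmb alone. Ikzf2, the transcription factor Helios, was at 124, 48.3, 211 and 69.0 CPM with Gzmk and 188, 94.9, 471 and 456 CPM with Gzmb alone. Xcl1, a chemokine that attracts cross-presenting dendritic cells, was at 85.7, 151, 216 and 83.8 CPM with Gzmk and 548, 389, 840 and 1800 CPM with Gzmb alone. All 3 genes were at a higher level per UMI in cells with Gzmb alone in each of these 4 libraries. Tyrobp, Klra7, Bcl2, Lef1 and Satb1 were also lower with Gzmk in all 4 libraries. Other genes that NK cells express did not follow. Eomes was higher with Gzmk, as given above, and Gzma and Klra3 were higher in 2 libraries and lower in 2. In control 3 Klrd1 was at 312 CPM with Gzmk against 278 with Gzmb alone, and Klre1 at 176 against 164. Both were lower with Gzmk in the other 3 libraries.

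Effector cells were next compared with granzyme-negative CD8 T cells, which met the same gate except for the granzyme UMI (892 cells, 63, 422, 171 and 232 in control 1, control 3, knockout 1 and knockout 3). Their median depth was 3407, 4496, 5994 and 4577.5 UMIs. UMIs were summed per class and library, and the edgeR quasi-likelihood test with library as a block was applied to the 4 libraries. At a Benjamini-Hochberg adjusted p below 0.05, 521 of 8945 genes were higher in effector cells (5.82%) and 542 were lower (6.06%). Each named gene below that passed moved the same way in all 4 libraries. With cells of at least 1000 UMIs 1056 genes passed, and without control 3 the number was 370.

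Cytotoxic and secreted products beyond the gate genes were higher in effector cells. Of 23 listed genes, 17 were measured, 13 passed as higher and none as lower, with a median log2 fold change of 1.59 beside -0.03 over all genes. Gzma was at 1740, 1750, 1290 and 1520 CPM in effector cells of control 1, control 3, knockout 1 and knockout 3, and at 282, 64.8, 11.4 and 40.9 CPM in granzyme-negative cells. The classes were far apart in every library, with a log2 difference of 4.72 ± 0.50 (SE, edgeR adjusted p = 0.00058). Ifng, interferon gamma, was at 256, 232, 225 and 157 CPM against 61.4, 58.9, 41.2 and 12.9, a log2 difference of 2.46 ± 0.25 (SE, adjusted p = 0.000568). Prf1, which encodes the pore-forming perforin, was 1.44 ± 0.20 higher (SE, adjusted p = 0.00171), and Fasl, the death receptor ligand, 1.92 ± 0.26 higher (SE, adjusted p = 0.0016).

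The chemokines Ccl3, Ccl4 and Ccl5, which attract leukocytes, rose together. Their log2 differences were 2.49 ± 0.26, 2.48 ± 0.20 and 2.13 ± 0.28 (SE), with adjusted p-values of 0.000568, 0.000231 and 0.00159. Xcl1 did not pass (1.06 ± 0.36, SE, adjusted p = 0.0844) and was higher in 3 libraries and lower in control 1.

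Naive, stem-like and memory genes were lower. Of 22 listed genes, 21 were measured, 14 passed as lower and none as higher, with a median of -1.29. Il7r was at 67.4, 33.1, 54.6 and 63.1 CPM in effector cells of control 1, control 3, knockout 1 and knockout 3 and at 329, 297, 272 and 181 CPM in granzyme-negative cells (log2 difference -2.40 ± 0.24, SE, adjusted p = 0.000568). Tcf7 and Lef1, factors of naive and stem-like T cells, were lower by -1.53 ± 0.19 and -1.91 ± 0.22 (SE, adjusted p = 0.000959 and 0.000737). Ccr7, a chemokine receptor of lymph node homing, was at -2.29 ± 0.26 (SE, adjusted p = 0.000737). Bach2 and Foxp1, repressors that hold T cells in a resting state, were also lower (-1.61 ± 0.17 and -1.29 ± 0.14, SE, adjusted p = 0.000636 and 0.000568). Klf2, a factor of quiescence and recirculation, differed by -0.07 ± 0.16 and did not pass (SE, adjusted p = 0.818).

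Recirculation and residency genes were both higher in effector cells. Of 18 circulating effector genes, 16 were measured and 14 passed as higher, among them Klrg1 (3.08 ± 0.43), S100a4 (2.09 ± 0.22), Cx3cr1 (1.70 ± 0.27), Zeb2 (1.54 ± 0.24) and Tbx21 (1.22 ± 0.23, SE, adjusted p at most 0.00775). S100a6, a calcium-binding protein of activated cells, had the smallest p of all genes (1.96 ± 0.14, SE, adjusted p = 7.27e-05). Of 20 residency genes, 16 were measured, 6 passed as higher and 1 as lower. The liver-homing receptor Cxcr6 was at 195, 151, 154 and 135 CPM against 94.0, 52.3, 41.2 and 32.6 (1.64 ± 0.19, SE, adjusted p = 0.000881), and the collagen-binding integrin Itga1 was 1.42 ± 0.21 higher (SE, adjusted p = 0.00225). Itgae, the epithelial integrin CD103, was at -1.29 ± 0.40 and did not pass (SE, adjusted p = 0.0606).

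Checkpoint and exhaustion genes were mostly higher in effector cells: 15 of 22 measured members passed as higher and 2 as lower, with a median of 1.40. Pdcd1, the receptor PD-1, was at 30.3, 28.2, 45.5 and 73.2 CPM in control 1, control 3, knockout 1 and knockout 3, and at 14.5, 7.32, 6.87 and 12.4 CPM in granzyme-negative cells (2.21 ± 0.27, SE, adjusted p = 0.000956). Havcr2 (TIM-3), Entpd1 (CD39), Tigit, Lag3 and Ctla4 were higher by 2.86 ± 0.48, 2.60 ± 0.35, 1.92 ± 0.43, 1.85 ± 0.39 and 1.21 ± 0.22 (SE, adjusted p at most 0.0163). Tox, a factor of chronic stimulation, was at 0.34 ± 0.19 and did not pass (SE, adjusted p = 0.268). In control 1 Tox was lower in effector cells, at 333.7 against 372.2 CPM.

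Genes of the cell cycle and of interferon response followed in part. Of 30 proliferation genes, 15 passed as higher and none as lower, including Hmgb2 (1.11 ± 0.15) and Pclaf (1.30 ± 0.24, SE, adjusted p = 0.00159 and 0.0069), while Mki67 and Top2a did not pass (0.37 ± 0.15 and 0.42 ± 0.14, SE, adjusted p = 0.144 and 0.0851). Of 33 interferon response genes, 32 were measured and 10 passed as higher, led by Ly6a (1.69 ± 0.24, SE, adjusted p = 0.00218). Among immediate early genes, 7 of 22 measured passed as higher, including Nr4a2 (1.15 ± 0.17, SE, adjusted p = 0.00233) and the phosphatase Dusp2 (1.47 ± 0.20, SE, adjusted p = 0.00187). Nr4a1 was at 0.28 ± 0.19 and Nr4a3 at 0.15 ± 0.28, and neither passed (SE, adjusted p = 0.38 and 0.781). In control 1 Nr4a3 was lower in effector cells, at 6.74 against 10.84 CPM. No oxidative phosphorylation gene of 31 passed, against 2 at an unadjusted p below 0.05 in the same edgeR fit.

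Markers of other cell types moved with this comparison as well. Of the NK and group 1 innate lymphoid genes, 9 of 12 measured passed as higher in effector cells (median 1.44), at summed levels of 2530, 2590, 2380 and 2580 CPM against 1120, 422, 399 and 298 CPM. Of the NK receptor genes 10 of 17 measured passed as higher (median 1.22). Of the endothelial, stromal and red cell genes 4 of 9 passed as higher (median 1.31), and of the myeloid genes 3 of 10 (median 1.02). No member of these lists passed as lower. Of 20 hepatocyte genes, all measured, 17 passed as lower in effector cells, with a median of -1.90. Their summed level was 276, 3890, 108 and 2150 CPM in effector cells of control 1, control 3, knockout 1 and knockout 3, and 1420, 6960, 1110 and 11200 CPM in granzyme-negative cells, and no hepatocyte gene was at 0 in control 3 or knockout 3. Of the 12 genes with the smallest p among those lower, Fabp6, a bile acid binding protein, was at -3.93 ± 0.37 and Car3, a carbonic anhydrase of liver and muscle, at -2.30 ± 0.26 (SE, adjusted p = 0.000568 and 0.000713). The part of other cell types' RNA in these results was not tested.

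**Figure D2:**
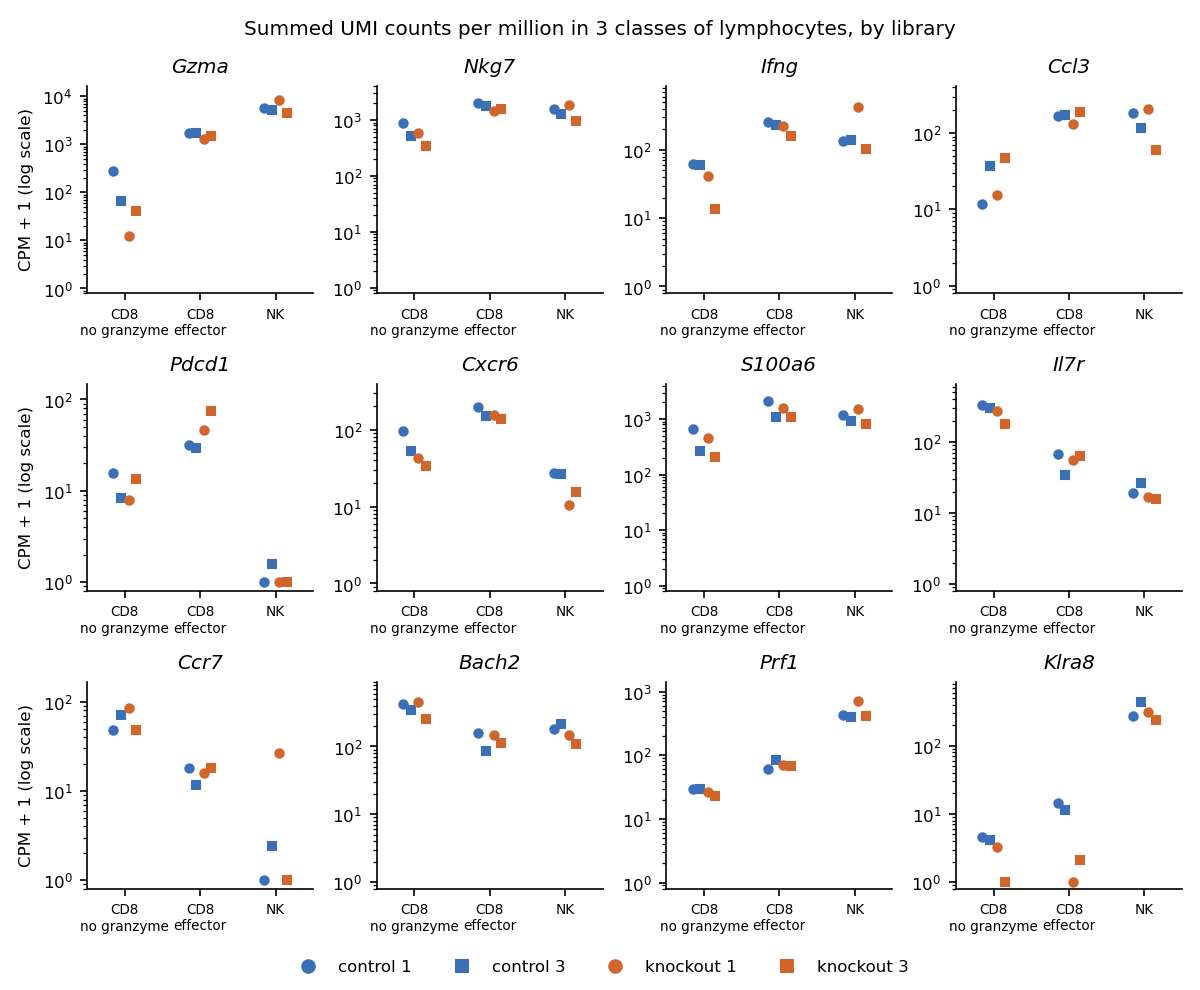
Levels in CPM plus 1 (log y axis) of cytotoxic, naive, checkpoint, homing and NK receptor genes in granzyme-negative CD8 T cells, effector CD8 T cells and NK cells (x axis), with 1 point for each of the 4 libraries. Gzma lies between 1290 and 1750 CPM in effector cells and between 11.4 and 282 CPM in granzyme-negative cells, and Il7r the other way round.

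NK cells, the other killer lymphocyte of the liver and the class in which Cre acts, were the second reference. These 1086 cells were gated on Ncr1 or Klrb1c and lacked UMIs of the T, B and myeloid genes of the effector gate. In the same 4 libraries 440 of 9240 genes were higher in effector cells than in NK cells (4.76%) and 399 were lower (4.32%). The total of 839 became 322 without control 1 and 527 without control 3.

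The killing machinery was divided between these classes. Prf1 was at 60.7, 83.6, 68.7 and 67.6 CPM in effector cells of control 1, control 3, knockout 1 and knockout 3 and at 434, 392, 718 and 409 CPM in NK cells, a log2 difference of -2.66 ± 0.20 (SE, edgeR adjusted p = 0.000125). Gzma was also lower in effector cells (-1.82 ± 0.19, SE, adjusted p = 0.000545), as was Serpinb9, the inhibitor that shields killer cells from granzyme B (-1.85 ± 0.18, SE, adjusted p = 0.000396). Ccl5 was higher in effector cells (1.37 ± 0.22, SE, adjusted p = 0.0061), with 9400, 17590, 6345 and 9434 CPM against 4228, 4169, 4504 and 3380. Gzmm was higher too (2.30 ± 0.46, SE, adjusted p = 0.0165), whereas Fasl and Nkg7 did not pass (0.23 ± 0.16 and 0.37 ± 0.16, SE, adjusted p = 0.435 and 0.197).

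T cell receptor signalling genes were higher in effector cells, with 18 of 22 passing and a median of 1.13. Effector cells were chosen by UMIs of Cd3 genes and NK cells by their absence, so the gates favour this direction. Trac led (5.90 ± 0.20), followed by the adaptors Lat (3.63 ± 0.22) and Grap2 (2.69 ± 0.15) and the inhibitory coreceptor Cd5 (5.77 ± 0.37, SE, adjusted p at most 7.11e-05). Checkpoint genes separated the classes as well, with 7 of 21 measured members higher and 2 lower. Pdcd1 was at 0, 0.558, 0 and 0 CPM in NK cells of control 1, control 3, knockout 1 and knockout 3. Effector cells therefore stood far above them (edgeR adjusted p = 0.000125), with the Pdcd1 levels given above. Havcr2 and Ctla4 were 3.93 ± 0.45 and 2.16 ± 0.18 higher (SE, adjusted p = 0.00119 and 0.00023). Cxcr6 was at 195, 151, 154 and 135 CPM in effector cells and at 26.3, 25.7, 9.57 and 14.6 CPM in NK cells (3.05 ± 0.22, SE, adjusted p = 0.000102).

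NK receptors were lower in effector cells: 16 of 21 measured members passed as lower and 3 as higher. The gates favour this direction too, since NK cells were chosen by the NK receptor genes Ncr1 or Klrb1c. Tyrobp (DAP12) was at 84.3, 73.5, 107 and 144 CPM against 1310, 1350, 1390 and 941 (-3.57 ± 0.24, SE, adjusted p = 8.36e-05), and Klra8 (Ly49H) at 13.5, 10.4, 0 and 1.13 CPM against 276, 434, 311 and 236. Ly49 genes are near copies, so reads may be split among them. Klrd1 and Klre1 were lower as well (-0.90 ± 0.16 and -1.85 ± 0.22, SE, adjusted p = 0.00851 and 0.00123). Interferon response genes were higher in effector cells, with 19 of 32 measured members passing as higher and 1 as lower, led by Ifi27l2a (4.93 ± 0.28, SE, adjusted p = 5.96e-05) and Slfn1 (4.19 ± 0.27, SE, adjusted p = 6.65e-05). Of 20 hepatocyte genes, 7 passed as lower in effector cells than in NK cells, at summed levels of 2950, 6420, 79.7 and 12500 CPM in NK cells in the same order, and their part in the result was not tested.

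Within the effector cells, a subset held UMIs of Ly49 genes (Klra1 and its relatives, inhibitory or activating receptors for class I molecules). This subset was chosen after its values were seen and is described without a test. Of the 1503 members, 316 held a UMI of any of 11 Klra genes, and 314 of these also held a constant chain of the alpha beta receptor. The share was 18.5% (95% Clopper-Pearson interval 9.25 to 31.4) in control 1, 19.8% (17.5 to 22.2) in control 3, 32.0% (23.9 to 40.9) in knockout 1 and 22.6% (15.9 to 30.6) in knockout 3. B cells gave 0.858%, 4.25%, 1.35% and 2.48%, and at 1000 UMIs per cell the effector shares became 15.1%, 9.35%, 21.6% and 12.5%. Granzyme-negative CD8 T cells held Ly49 UMIs in 23.8%, 13.7%, 18.7% and 17.7% of cells in the same order, so such cells were not limited to effector cells. The intervals cover counting error within a library only and compare no groups. By mouse the effector share was 21.3%, 17.4% and 27.5% in mice A, B and C of control 3 and 31.4% and 12.2% in mice A and B of knockout 3, so the mice of the groups overlapped.

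Ly49-holding members carried a set of innate receptor genes in each of the 4 libraries. Fcer1g was at 816, 167, 546 and 971 CPM in Ly49-holding members of control 1, control 3, knockout 1 and knockout 3, and at 0, 27.6, 69.0 and 61.0 CPM in the others. Ikzf2 was at 742, 105, 693 and 990 CPM against 37.1, 46.9, 168 and 50.6, and Tyrobp at 445, 176, 201 and 476 CPM against 4.12, 30.8, 44.2 and 37.2. In CPM the difference was smallest in control 3 for all 3 genes, but as a ratio that of Tyrobp was smallest in knockout 1. Xcl1, Klrc2, Klrd1 and Gzma were also higher in all 4 libraries, with mean levels of 1400, 74.6, 531 and 2860 CPM against 273, 18.3, 250 and 1140.

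Other T cell genes were lower in them. Themis, a regulator of T cell receptor signalling, had a mean of 220 CPM in Ly49-holding members and 510 CPM in the others, and Ly6a a mean of 85.7 against 250 CPM. Dapl1, a gene of memory-like CD8 T cells, had a mean of 9.54 against 77.6 CPM. Gzmk was held by 2 of 10 Ly49-holding members in control 1, 7 of 40 in knockout 1 and 4 of 31 in knockout 3, but by 161 of 234 in control 3. Within control 3 this held for mice A (65 of 87) and B (71 of 97) but not for mouse C (2 of 11). Among all members, too, Gzmk was more frequent in control 3 (59.8%) than in control 1 (37.0%), knockout 1 (38.4%) and knockout 3 (32.8%).

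**Figure D3:**
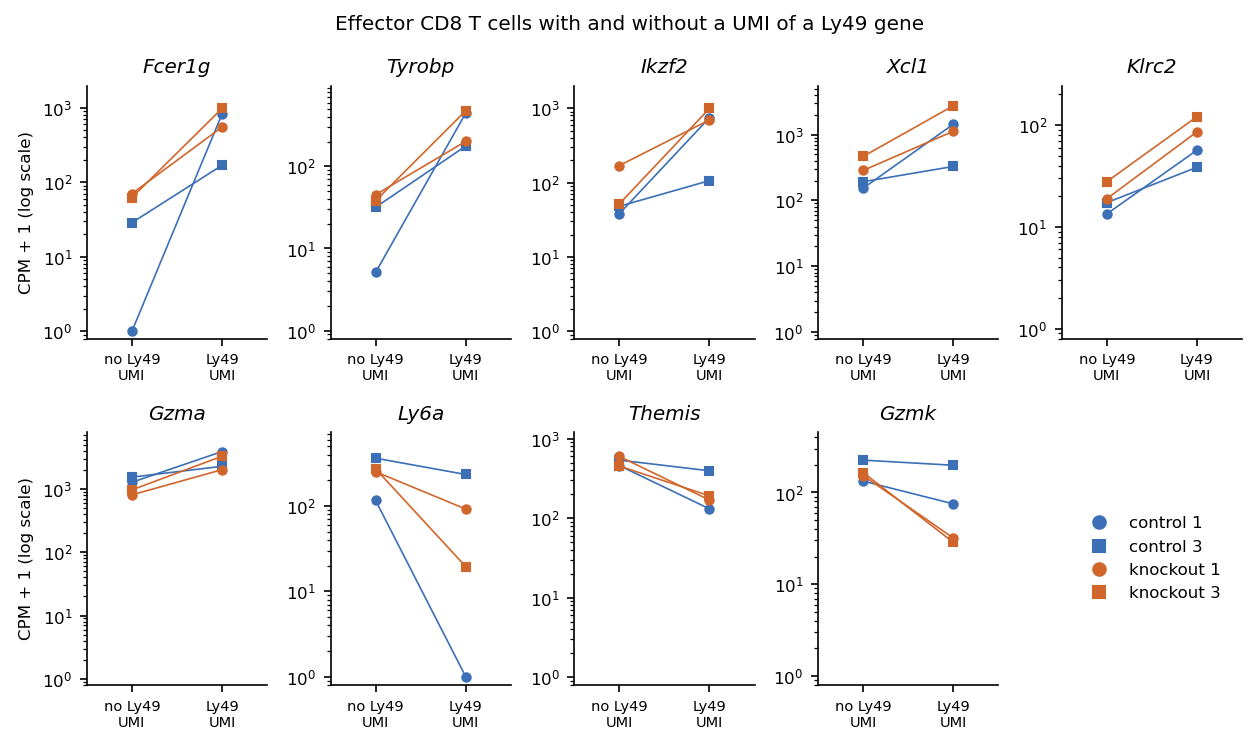
Levels in CPM plus 1 (log y axis) in effector CD8 T cells without and with a UMI of a Ly49 gene (x axis), with lines joining the 2 values of a library. Fcer1g, Ikzf2, Tyrobp and Xcl1 lie higher with a Ly49 UMI in each of the 4 libraries, and Ly6a and Themis lie lower.

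The last comparison asked whether effector cells of mice labelled knockout differed in expression from those of controls. The targeted gene was looked at first. Nr4a1 in effector cells was at 47.2 CPM in control 1, 47.7 in control 3, 68.7 in knockout 1 and 40.5 in knockout 3 (log2 fold change 0.22 ± 0.32, SE, edgeR adjusted p = 1.0). The groups overlapped. In NK cells, where Cre acts, Nr4a1 was at 71.4 CPM in control 1, 35.4 in control 3, 165.8 in knockout 1 and 43.9 in knockout 3, so it was not lower under the knockout label. Which exons are floxed is not given in the sources used here, and a 3′ tag outside the deleted part checks nothing. Ncr1, which helped to choose the NK cells, was in them at 651 CPM in control 1, 466 in control 3, 188 in knockout 1 and 152 in knockout 3. In effector cells Nr4a2 was at 138, 150, 171 and 125 CPM and Nr4a3 at 6.74, 13.0, 23.2 and 12.4 CPM in control 1, control 3, knockout 1 and knockout 3, and Ncr1 at 16.9, 14.1, 13.2 and 3.38 CPM.

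No gene passed in the main fit, which had the low-count filter and no replicate block. In the edgeR quasi-likelihood test of 2 against 2 libraries, 0 of 8652 genes (0% called) reached an adjusted p below 0.05, and 170 had an unadjusted p below 0.05. DESeq2 called 2 genes, both higher under the knockout label, Klra7 and Nfkbia. With replicate number as a block 35 genes passed, 20 higher and 15 lower, and with mice as units and that block 0 of 6465 did (465 at an unadjusted p below 0.05). The number goes with the Cell Ranger version and with hashtag pooling, which the libraries numbered 3 share. The genes described below were taken by rank of p in the fit without the block, so their differences are values, not changes. Between the groups, the libraries did not overlap for 1413 genes that were higher under the knockout label (16.3%) and 1204 that were lower (13.9%), 30.2% of genes in all.

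Klra7 and Nfkbia had the smallest p, and with the replicate block their adjusted p was 0.000408 and 0.00759 (0.678 and 0.622 with mice as units). Klra7 (Ly49G2) was at 50.6 CPM in control 1, 29.0 in control 3, 150 in knockout 1 and 160 in knockout 3 (2.15 ± 0.30, SE, edgeR adjusted p = 1.0). Split by mouse it was at 15.5, 5.40 and 133 CPM in mice A, B and C of control 3 and at 272 and 33.8 CPM in mice A and B of knockout 3, so the mice of the groups overlapped. Nfkbia, an inhibitor of NF-kappaB that is itself induced by that factor, was at 158 CPM in control 1, 160 in control 3, 345 in knockout 1 and 348 in knockout 3 (1.12 ± 0.17, SE, adjusted p = 1.0). Its levels by mouse were 147, 150 and 305 CPM in control 3 and 474 and 258 CPM in knockout 3, and mouse C of control 3 lay between the mice labelled knockout.

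Some genes of the Ly49-holding subset were among those with the larger values. Ikzf2 was at 165.1 CPM in control 1, 63.9 in control 3, 378 in knockout 1 and 279 in knockout 3 (1.67 ± 0.46), Fcer1g at 148 and 68.4 against 260 and 283 CPM (1.45 ± 0.37), and Xcl1 at 384 and 231 against 617 and 1020 CPM (1.44 ± 0.34, SE, adjusted p = 1.0 for each). With the replicate block the edgeR adjusted p was 0.00135 for Ikzf2, 0.00813 for Fcer1g and 0.0179 for Xcl1, and with mice as units 0.678, 0.717 and 0.761. The libraries did not overlap, but the mice did. Xcl1 was at 183, 142 and 962 CPM in mice A, B and C of control 3 and at 1960 and 76.9 CPM in mice A and B of knockout 3. Mouse A of knockout 3 and mouse C of control 3 were the high ones for these genes. With Ly49-holding cells left out, the values were 1.30 ± 0.55 for Ikzf2, 1.62 ± 0.67 for Fcer1g and 1.09 ± 0.30 for Xcl1 (SE), and 1.04 ± 0.27 for Nfkbia. Not every gene of the subset lay higher under the knockout label. Gzma was at 1743 CPM in control 1, 1748 in control 3, 1287 in knockout 1 and 1524 in knockout 3. The Ly49 gene Klra8 was at 13.5 and 10.4 against 0 and 1.13 CPM.

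Among T cell receptor chains, Trbc1 and Trdc had higher values under the knockout label and Trac and Trbc2 did not (-0.23 ± 0.19 and -0.16 ± 0.15, SE, adjusted p = 1.0 for both). Of the 22 receptor complex and signalling genes, 15 lay below 0 (median -0.13). Trbc1, 1 of the 2 constant genes of the beta chain, was at 330 CPM in control 1, 430 in control 3, 779 in knockout 1 and 672 in knockout 3 (0.93 ± 0.20, SE, adjusted p = 1.0). By mouse it was at 337, 416 and 861 CPM in control 3 and at 824 and 652 CPM in knockout 3. Trdc, the constant gene of the delta chain, was at 10.1 and 9.93 CPM against 26.5 and 43.9 CPM (1.80 ± 0.41, SE, adjusted p = 1.0). With the replicate block the adjusted p was 0.0325 for Trbc1 and for Trdc (0.678 and 0.64 with mice as units). Of 17 listed unconventional T cell genes, 13 are in the files, and the 5 that passed the low-count filter had values above 0, with a median of 1.20. The summed level of the 13 was 91.0 CPM in control 1, 81.7 in control 3, 186 in knockout 1 and 203 in knockout 3. Leaving out cells with a UMI of Ncr1, Klrb1c, Trdc or Zbtb16 left 0 genes called and 148 at an unadjusted p below 0.05. After this Trbc1 stood at 1.01 and Ikzf2 at 1.70.

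Among lower values, Cx3cr1, the fractalkine receptor of circulating effector cells, was at 60.7 CPM in control 1, 64.0 in control 3 and 31.5 in each of knockouts 1 and 3 (-0.99 ± 0.23, SE, adjusted p = 1.0). By mouse it was at 84.1, 70.8 and 7.92 CPM in control 3 and at 16.4 and 46.1 CPM in knockout 3, where mouse C was again the control that lay low. Cd5, which dampens receptor signalling, was at 189 and 179 against 83.6 and 114 CPM (-0.90 ± 0.21, SE, adjusted p = 1.0). Csad, an enzyme of taurine synthesis, was at 20.2 and 49.5 against 5.80 and 7.88 CPM, and Map2k6, a kinase upstream of p38, at 43.8 and 38.9 against 15.7 and 15.8 CPM. Klra4 (Ly49D) had 4 UMIs in control 1, 128 in control 3 and 0 in both libraries labelled knockout, where a count of 0 allows up to 2.48 and 3.38 CPM beside 13.5 and 15.3 CPM in the controls. Mouse C of control 3 had the most, 105 CPM. With the replicate block Klra4 and Csad passed (edgeR adjusted p = 0.042 and 0.0312), and Cx3cr1, Cd5 and Map2k6 did not (0.218, 0.103 and 0.173).

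**Figure D4:**
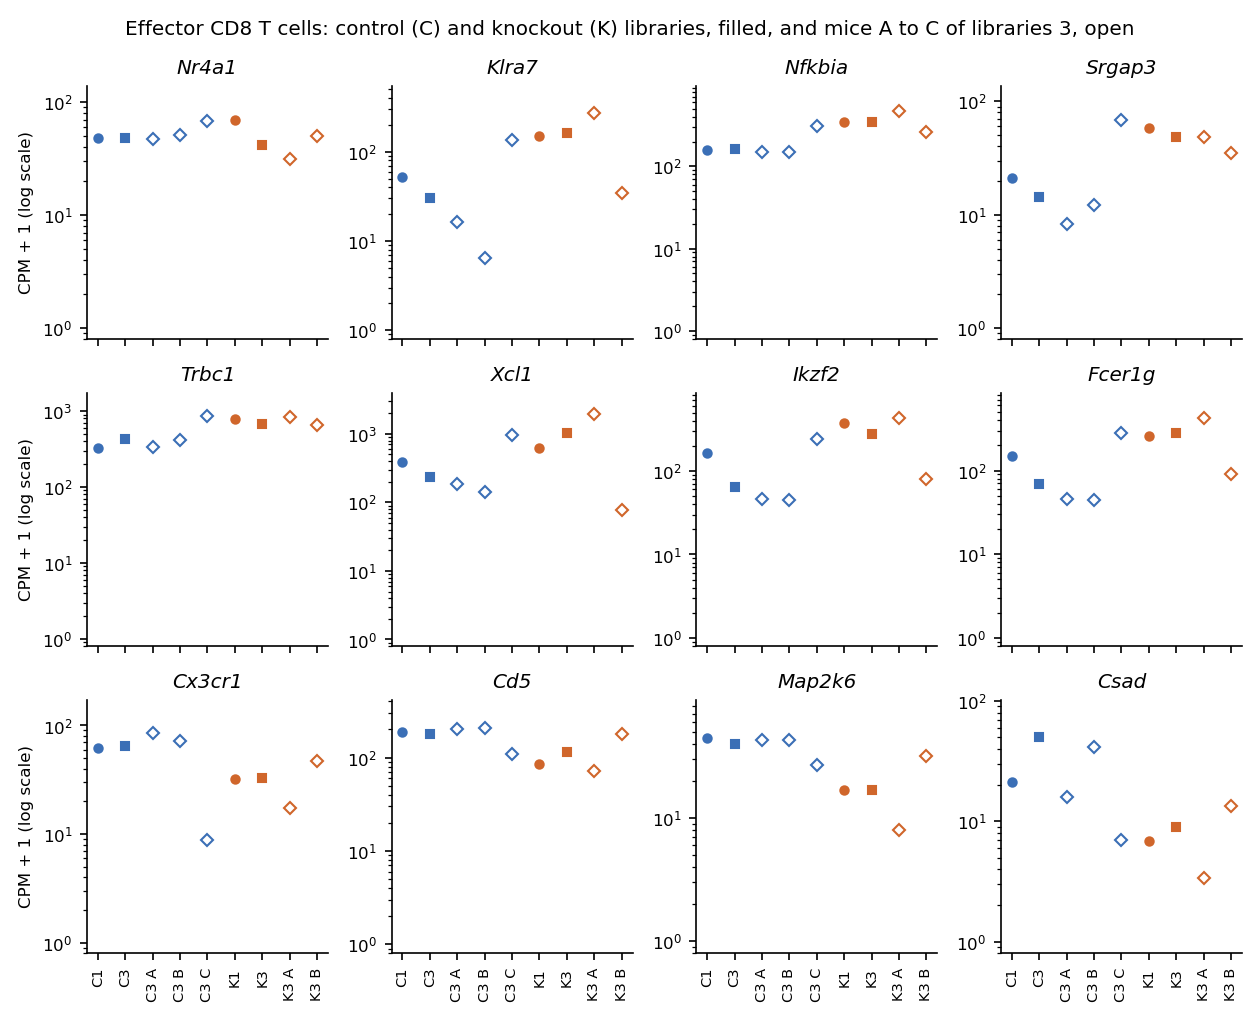
Levels in CPM plus 1 (log y axis) of genes named for the comparison of knockout with control libraries, with filled points for libraries and open points for the mice of the libraries numbered 3 (x axis; C control, K knockout). Mouse C of control 3 lies among the knockout points for Klra7 and Xcl1, with 133 and 962 CPM, and below all of them for Cx3cr1, with 7.92 CPM.

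By gene list, 0 members were called in the main fit, without the block, in any of the 22 lists (0% of all genes). The medians stand beside a median of -0.01 over all genes. Circulating effector genes had a median of -0.29, with 14 of 17 measured members below 0, and 11 were without overlap between the groups' libraries, 10 of them lower, beside 16.3% higher and 13.9% lower over all genes. Chemokine receptor and adhesion genes had a median of -0.22 (12 of 16 below 0), with 9 lower without overlap. Among T cell receptor induced genes 20 of 23 measured members were above 0 (median 0.37), with Nfkbia and Egr3 of the smallest p, and 5 were without overlap, all higher. Checkpoint genes had a median of 0.38 (15 of 22 above 0), with 8 higher and 2 lower without overlap. Pdcd1 was at 30.3 CPM in control 1, 28.2 in control 3, 45.5 in knockout 1 and 73.2 in knockout 3 (1.03 ± 0.32, SE, edgeR adjusted p = 1.0). Glycolysis genes had 16 of 19 measured members above 0 (median 0.22), with 9 higher without overlap. Heat shock genes had 11 of 14 above 0 (median 0.24), NK receptor genes 12 of 21 (median 0.27) and naive and stem-like genes 14 of 21 (median 0.33). In the same order, 5, 8 and 3 were higher without overlap and 1, 5 and 1 lower.

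Some lists lay close to the median of all genes. Cytotoxic and secreted factors had a median of -0.07 with 18 of 23 members measured, and Prf1 was at 60.7 CPM in control 1, 83.6 in control 3, 68.7 in knockout 1 and 67.6 in knockout 3. Proliferation genes had a median of 0.06, interferon response genes 0.05 and oxidative phosphorylation genes -0.01, and each of these lists had both signs among its members. Without overlap between the groups' libraries, 6 of 30 proliferation genes were higher and 0 lower. For interferon response genes these counts were 9 and 5 of 33, for oxidative phosphorylation genes 0 and 6 of 31, and for cytotoxic and secreted factors 5 and 5 of 18. Over all genes 16.3% were higher and 13.9% lower. Gzmb, which chose the cells, was at 1010 CPM in control 1, 1230 in control 3, 1140 in knockout 1 and 963 in knockout 3, and Gzmk at 121 and 216 against 103 and 131 CPM.

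RNA of other cell types again differed between the libraries. All 20 hepatocyte genes were below 0 (median -1.38), at summed levels of 276 CPM in control 1, 3890 in control 3, 108 in knockout 1 and 2150 in knockout 3, so that library number separated these levels more than the group did. The summed level of the 14 endothelial, stromal and red cell genes was 80.9, 3080, 53.0 and 8510 CPM in control 1, control 3, knockout 1 and knockout 3. In knockout 3, 7011 of 7055 haemoglobin UMIs (99.4%) came from 1 cell. The 20 listed myeloid genes summed to 438, 851 and 4080 CPM in mice A, B and C of control 3. In mice A and B of knockout 3 they summed to 1270 and 384 CPM. The part of these RNAs in the results was not tested.

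**Figure D5:**
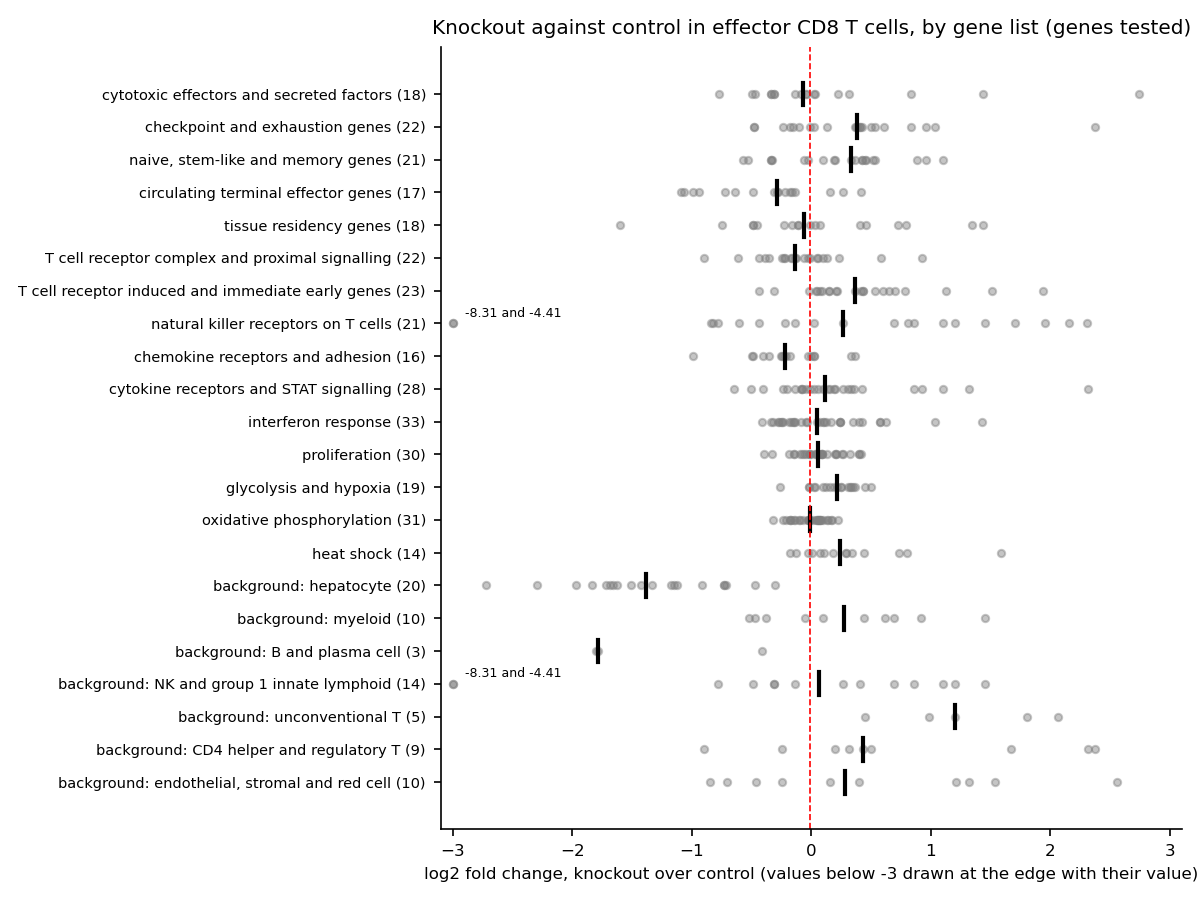
Log2 fold change of knockout over control in effector CD8 T cells (x axis) for each gene tested in each list (rows), with the median of each list marked. Circulating effector genes lie mostly below 0 (median -0.29) and hepatocyte genes all lie below 0 (median -1.38), and no gene passed the main edgeR test (low-count filter, no replicate block).

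Whether the values under the knockout label differed between effector and granzyme-negative CD8 T cells was tested as an interaction in the same edgeR framework. Of 10126 genes, 22 passed (0.217%), 10 with a higher and 12 with a lower value in effector cells. Among them were Ikzf2 (2.47 ± 0.44), Fcer1g (2.30 ± 0.44) and Xcl1 (2.03 ± 0.38, SE, adjusted p = 0.0146, 0.0268 and 0.0223). In granzyme-negative cells Ikzf2 was at 759 CPM in control 1, 113 in control 3, 208 in knockout 1 and 116 in knockout 3, the reverse of its order in effector cells for the libraries numbered 1. Without control 3 the interaction had an adjusted p of 0.00481 for Ikzf2, 0.298 for Xcl1 and 0.0331 for Fcer1g. Without control 1 it was 0.422, 0.252 and 0.46, and without knockout 3 it was 0.059 for Xcl1. Between 17 and 75 genes passed when a library was left out. The other genes are mostly haemoglobin and hepatocyte genes, whose levels in single cells are given further on.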

How the data were processed

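Each deposited matrix gives UMI counts by gene and barcode. Per the file headers, Cell Ranger 7.0.1 was used for libraries 1 and 2 (called cells) and 9.0.1 for libraries 3 (all barcodes). The submitters' processing notes name 9.0.1 and GRCm39. Chemistry was 10x 3′, per the labels. The members, markers and gene lists were chosen with earlier results of these data known.

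Counts were summed per library and class where at least 10 cells were present (4 libraries) and tested with edgeR 4.0.16 in R 4.3.3 (quasi-likelihood, TMM, filterByExpr, two-sided, Benjamini-Hochberg adjustment over all genes tested, threshold 0.05). Comparisons between classes had library as a block. Standard errors were obtained from the log2 fold change and the root of F. The 12 gate genes were left out of counts of genes. CPM are UMIs per 1000000 of the class. Shares were compared by exact permutation over libraries, in a family of 6 measures. None passed, and none could at 0.05, since the smallest possible p was 0.1. Hashtags were called with Seurat 5.3.0 (HTODemux, quantile 0.99), and their 127 and 8 multiplets among members of control 3 and knockout 3 were kept. In every comparison with mice as units, a library without hashtags entered as a unit, and mice of a pool share a library. No doublet caller was run. Scripts were tested on simulated data.

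Named genes were Nr4a1, Nr4a2, Nr4a3 and Ncr1 for the genotype comparison, then up to 12 passing genes per direction (or the 12 smallest p), 2 members per list, and up to 5 per direction for the interaction. Genes given as group members were added for description. Alternatives included DESeq2 1.42.0, its size factors, no low-count filter, replicate block, each library left out, mice as units, at least 1000 UMIs, at least 2 CD8 UMIs, and cells with innate markers left out. Leaving out Ly49-holding or haemoglobin-rich cells (at least 10 UMIs) and mice as units without a block were chosen after seeing the data.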

Additional observations from a re-analysis of the deposited data

Results flagged for a closer look

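For 22 genes the difference between the libraries labelled knockout and the controls was unlike in effector and in granzyme-negative CD8 T cells, by the interaction test of edgeR (values are log2, effector minus granzyme-negative). The haemoglobin genes were Hba-a1 at 5.89, Hbb-bt at 6.74, Hba-a2 at 4.40 and Hbb-bs at 4.37. In knockout 3, 1 effector cell held 1564 of 1568 UMIs of Hba-a1 and 3366 of 3392 of Hbb-bs. With cells of at least 10 haemoglobin UMIs left out, the adjusted p of each of these 4 genes was 1.0.

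The liver and secreted-protein genes were lower in that difference: Apoa2 at -2.77, Fgb at -3.06, Gc at -3.06, Ambp at -3.52, Serpinf1 at -4.32, Apom at -3.87, Serpina6 at -4.16 and Apoc4 at -2.92. Bex1 was at -4.13, Bex4 at -4.32, Lgals2 at -4.01 and Tff3 at -5.25. In knockout 1, 1 granzyme-negative cell held 368 of 387 Apoa2 UMIs, 100 of 108 Fgb UMIs and 32 of 32 Tff3 UMIs.

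Inflammatory genes were higher: S100a9 at 4.47, Cxcl10 at 4.03 and Cxcl2 at 4.98. In control 3, 1 granzyme-negative cell held 327 of 505 S100a9 UMIs, and in knockout 3, 1 effector cell held 160 of 228 Cxcl2 UMIs. Cxcl10 had 139 UMIs in 14 effector cells of knockout 3, at most 44 in a cell.

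Lymphocyte genes were Ikzf2 at 2.47, Xcl1 at 2.03 and Fcer1g at 2.30. In knockout 3, 248 Ikzf2 UMIs came from 35 effector cells, at most 45 in a cell, and 251 Fcer1g UMIs from 35 cells, at most 29 in a cell. Xcl1 rested more on single cells. There 902 Xcl1 UMIs came from 51 effector cells, with 226 in 1 cell. Among granzyme-negative cells, 1 cell held 155 of 250 Xcl1 UMIs in knockout 1, and 1 cell held 168 of 385 in knockout 3.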

How the results depend on the processing

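Of the 6 share comparisons none had an exact permutation p below 0.05 under any alternative, but with libraries as units none could. The smallest possible p over all libraries used was 0.1, or 0.333 for the granzyme shares, which are given as values only. With the replicate block it was at least 0.25. With mice as units it was 0.00794 to 0.0286, so only there could a share have passed. The share among all kept cells was -2.43 points and reversed to 1.01 without control 3 (-4.46 to 1.01 over libraries left out), and the share with Gzmb only reversed from 12.8 to -3.12 when thinned. Libraries of 1 replicate number also share the Cell Ranger version, and those numbered 3 are pools. Deviations from the group means over 8659 genes correlated at 0.646 for equal numbers and -0.646 crossed, which are equal in size by construction with 2 libraries a group. With the replicate block, genes changed in effector CD8 T cells were 35 (20 higher, 15 lower), against 0 without it, and the share among CD8 T cells differed by -20.3 points (exact p = 0.5). That count was 69 of 20467 (31 higher, 38 lower) with no low-count filter, 2 with DESeq2 and 0 to 1 with a library left out (1 without knockout 3), and 0 under the other alternatives, with mice as units, Ly49-holding cells or haemoglobin-rich cells left out among them. The cause was not tested, except that the filter changes the genes tested. Genes that differed from granzyme-negative cells were 1063, 1938 with no low-count filter (40.2% of them higher, against 49.0%) and 370 to 1027 with a library left out. Genes that differed from NK cells were 839, 1973 with no low-count filter (37.7% higher, against 52.4%) and 322 to 1039 with a library left out. Interaction genes were 22, 12 with DESeq2 and 17 to 75 with a library left out. For the interaction, Hbb-bt ran from -1.06 to 7.76 and Hba-a2 from -1.48 to 4.415 over libraries left out, both reversed without knockout 3, and Hba-a1 and Hba-a2 to -0.52 and -0.80 without haemoglobin-rich cells. Where a library was left out, the lone library of a group is assumed to vary like the other group. Leaving out both libraries numbered 2 changes no fit, since they lie under the minimum of 10 cells. The share among CD8 T cells does use control 2, and the shares among T cells and among all kept cells use both. The 54 effector cells of control 1 limit genes of low count.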
